A study of Mus musculus and Homo sapiens with 176 samples.

Results

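The genes of voltage-gated sodium and calcium channels were followed in the RNA of nuclei sorted from the cerebellum and the prefrontal cortex of a mouse. Members were all features of the RNA tables whose symbol begins with Scn and a digit, or with Cacna, Cacnb or Cacng, which gave 40 of 24854 features. They comprise 10 sodium channel alpha, 4 sodium channel beta, 10 calcium channel alpha1, 4 calcium channel alpha2delta, 4 calcium channel beta and 8 gamma subunit genes. The study set neuronal against glial nuclei within and between both regions, by RNA sequencing and by chromatin profiling that was not analysed here. Nuclei were stained for NeuN, the neuronal antigen encoded by Rbfox3, and sorted into a stained (NeuN+) and an unstained (NeuN-) gate. The groups were cerebellar NeuN+, cerebellar NeuN-, prefrontal NeuN+ and prefrontal NeuN-, with 2 libraries each. All 8 libraries came from 1 C57BL/6 mouse, M3, of a cohort aged 8 to 10 weeks and killed under isoflurane. Total RNA of the sorted nuclei was sequenced, with the dissection of the prefrontal cortex not given in the sources used here. GEO's labels do not say what separates libraries 1 and 2 of a group, so p-values measure how libraries of a group vary, perhaps for technical reasons alone, and say nothing of variation between animals.

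A voltage-gated channel is built around a large pore-forming subunit, called alpha in sodium channels and alpha1 in calcium channels. Sodium channels open on depolarization and carry the rising phase of the action potential, while calcium channels couple the depolarization to transmitter release, to firing patterns and to gene regulation. Smaller subunits set the amount of channel at the membrane and its kinetics. Several proteins named as calcium channel gamma subunits act mainly as auxiliary subunits of AMPA-type glutamate receptors.

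Values are the deposited FPKM, fragments per length of transcript and per number of mapped fragments, so levels of different genes can be compared. Means, changes and tests use FPKM scaled between libraries. A fold change is on the scale of scaled FPKM + 1, which understates changes of low genes. A call is a limma p under 0.05 after Benjamini-Hochberg adjustment over all 14375 features tested. The absolute sequencing depth is unknown. The relative depth of the libraries, read from FPKM values and their deposited confidence limits, spanned 1 to 1.51. The prefrontal NeuN- libraries stood apart in their FPKM sums, 426851 and 414229.8 against 289350.2 to 307198 in the other 6 libraries, and were scaled by 0.869 and 0.887 where the others took 1.02 to 1.04. Of the 40 members, 26 reached 1 FPKM in at least 2 libraries and entered the fit. Some passed this filter only through 1 side of a comparison, and so had to be high there. Scn4b, Cacna1e, Cacna1i and Scn9a passed through NeuN+ libraries, Cacna2d4 through cerebellar NeuN- libraries, Cacna2d2 through cerebellar ones, and Scn3b and Scn4b through prefrontal ones. The counts over the tested members are descriptions for this reason, as are the p-values of these genes in those comparisons. Among the members at a mean of 5 scaled FPKM or more, the 2 libraries of a group differed by a median factor of 1.03 and at most by 1.24 (Cacnb1 in cerebellar NeuN-). At means of 1 to 5 the median factor was 1.10 and the largest 1.63 (Cacng2 in prefrontal NeuN-).

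The gates were checked with marker lists. Rbfox3, the gene of the sorted antigen, had 123 and 119 FPKM in cerebellar NeuN+ against 33.3 and 34.5 in cerebellar NeuN-, and 16.2 and 15.7 in prefrontal NeuN+ against 14.2 and 12.3 in prefrontal NeuN-. Summed FPKM of 6 oligodendrocyte genes were 196 and 194 in cerebellar NeuN+ against 1476 and 1510 in cerebellar NeuN-, and 85.4 and 79.8 in prefrontal NeuN+ against 2093 and 2039 in prefrontal NeuN-. All 6 were called lower in NeuN+ in both regions, as were all 6 astrocyte genes. Granule neuron markers, also 6, summed to 630.2 and 640.1 FPKM in cerebellar NeuN+, 172 and 172 in cerebellar NeuN-, and 7.79 to 8.48 in the 4 prefrontal libraries. The 8 general neuronal genes summed to 1326 and 1336 FPKM in cerebellar NeuN+ against 647 and 659 in cerebellar NeuN-, and to 1358 and 1352 in prefrontal NeuN+ against 1962 and 2041 in prefrontal NeuN-. Of these 8, all were called higher in cerebellar NeuN+, while 5 were called higher and 3 lower in prefrontal NeuN+. Inhibitory neuron genes, 5 in all, summed to 294 and 298 FPKM in cerebellar NeuN+, 451 and 465 in cerebellar NeuN-, 898 and 818 in prefrontal NeuN+, and 1474 and 1337 in prefrontal NeuN-. Most of the prefrontal sums was Sst, with 806 and 724 FPKM in NeuN+ and 1371 and 1237 in NeuN-. Pvalb made up most of the cerebellar sums. Of these 5 genes, 2 were called higher, 1 lower and 2 not called in prefrontal NeuN+. In cerebellar NeuN+, 0 were called higher, 3 lower and 2 not called. Of the neuronal lists, the genes listed at 0 in both libraries of a group were Tbr1 in both cerebellar groups, and Gabra6 and Fat2 in prefrontal NeuN+. Of the microglia list, Aif1 was listed at 0 in cerebellar NeuN+ and C1qa in cerebellar NeuN-. Microglia markers summed to 6.68 to 17.7 FPKM in the 4 cerebellar libraries, 8.46 and 9.73 in prefrontal NeuN+, and 289.5 and 292 in prefrontal NeuN-. The part of these cell types in the channel values below was not tested. In bulk nuclei, fewer cells of a type and less RNA per cell cannot be told apart.

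Most of the tested channel genes were higher in NeuN+ than in NeuN- nuclei in each region. In prefrontal cortex, 21 of the 26 tested members were called higher in NeuN+, 2 lower and 3 were not called, where 35.0% of all tested features were called higher and 37.6% lower. The median log2 change was 1.07 for the members and -0.01 for all features. In cerebellum, 17 members were called higher in NeuN+, 6 lower and 3 were not called, beside 32.4% higher and 39.2% lower over all features, and the medians were 0.57 and -0.04. Changes of at least 2-fold were found for 14 members higher and 0 lower in prefrontal NeuN+ (9.36% and 13.4% of all features), and for 7 higher and 4 lower in cerebellar NeuN+ (8.24% and 17.1%). The all-feature median of the prefrontal gate change moved to -0.19 without library scaling and to 0.14 when FPKM were rescaled to a common sum.

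Whether the gate change itself differed between the regions was tested directly. The difference, cerebellum minus prefrontal cortex, was called negative for 18 members and positive for 4, where 37.0% and 33.1% of all features were called in these directions. The median difference was -0.75 for the members and -0.06 for all features. Without library scaling the all-feature median moved to 0.13, and with a common sum to -0.23. The positive members included Scn2a1, Scn2b and Cacna2d2. The 4 members not called were Scn4b, Cacna1a, Cacna1i and Cacna2d1.

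**Figure D1:**
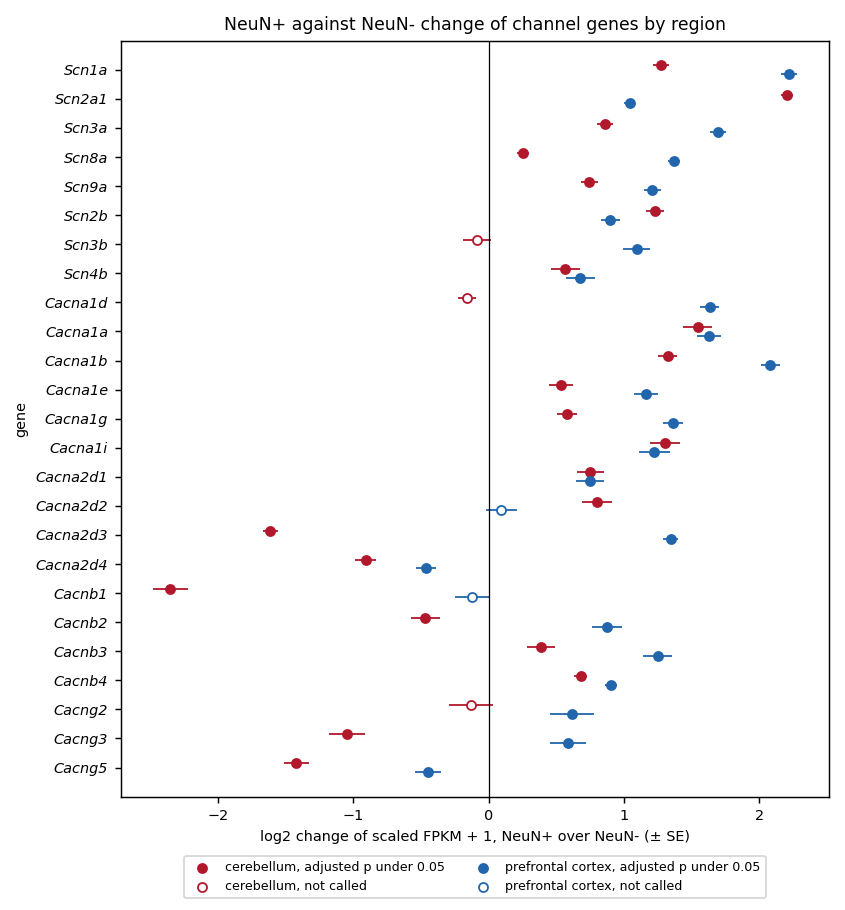
Log2 change of scaled FPKM + 1 between NeuN+ and NeuN- for tested channel genes (x axis), with cerebellum in red and prefrontal cortex in blue; bars are ± 1 SE from limma with 2 libraries per group, and open circles did not reach an adjusted p of 0.05. All 5 sodium alpha genes lie right of 0 in both regions, whereas Cacna2d3, Cacnb2 and Cacng3 have calls on opposite sides of 0.

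Between the regions, the NeuN+ counts of channel genes lay near the shares of all features, and in NeuN- more were called higher in cerebellum than lower. In NeuN+, 11 members were called higher in cerebellum than in prefrontal cortex and 10 lower, with 5 not called, where 36.5% and 40.7% of all features were called in these directions. In NeuN-, 16 were called higher in cerebellum, 6 lower and 4 were not called, beside 40.5% and 38.9% of all features. The member medians were -0.04 in NeuN+ and 0.40 in NeuN-, and those of all features -0.03 and 0.02. The NeuN- median of all features moved to -0.13 without scaling and to 0.26 with a common sum. The gate and the region comparisons draw on the same libraries and are given side by side only.

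The 5 sodium channel alpha genes that entered the fit were all called higher in NeuN+ in both regions, beside 15.2% of all features. Scn9a among them passed the filter through NeuN+ libraries. Summed over all 10 alpha genes, scaled FPKM reached 109 ± 0.647 in cerebellar NeuN+, 40.5 ± 0.520 in cerebellar NeuN-, 94.4 ± 1.41 in prefrontal NeuN+ and 30.5 ± 0.573 in prefrontal NeuN- (SD, n = 2 each). Scn1a and Scn2a1 moved by unlike amounts in the 2 regions. The gene with the largest NeuN+ excess was Scn1a in prefrontal cortex and Scn2a1 in cerebellum.

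Scn1a (chromosome 2, 66108839 to 66278894, mm9) encodes Nav1.1, known from the axons of fast-spiking inhibitory neurons and mutated in human Dravet syndrome. It stood at 25.4 and 25.3 FPKM in cerebellar NeuN+ against 10.3 and 9.51 in cerebellar NeuN-, and at 30.1 and 29.1 in prefrontal NeuN+ against 6.43 and 6.73 in prefrontal NeuN-. The gates did not overlap in either region. The NeuN+ level was 2.42-fold higher in cerebellum (log2 change 1.28, SE 0.060, limma adjusted p = 4.11e-06) and 4.66-fold higher in prefrontal cortex (log2 change 2.22, SE 0.060, limma adjusted p = 5e-07), a difference of -0.94 in log2 units, cerebellum minus prefrontal cortex (SE 0.084, limma adjusted p = 0.000105). Across regions it was 1.65-fold higher in cerebellar than in prefrontal NeuN- (limma adjusted p = 3.79e-05). The NeuN+ gates differed by only -0.22 (limma adjusted p = 0.0121), a call lost when cerebellar NeuN+ library 2 (adjusted p = 0.0536) or prefrontal NeuN+ library 1 (adjusted p = 0.0634) was left out, and under quantile or common-sum scaling.

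Scn2a1 (chromosome 2, 65508502 to 65605504, mm9; Scn2a in current naming) encodes Nav1.2, a channel of axon initial segments and unmyelinated axons of excitatory neurons. Its FPKM were 55.0 and 56.4 in cerebellar NeuN+, 11.3 and 11.4 in cerebellar NeuN-, 32.6 and 31.3 in prefrontal NeuN+ and 17.7 and 17.7 in prefrontal NeuN-. The cerebellar NeuN+ libraries were the highest and the cerebellar NeuN- libraries the lowest, with no overlap among the 4 groups. It was 4.62-fold higher in cerebellar NeuN+ than in NeuN- (log2 change 2.21, SE 0.043, limma adjusted p = 2.47e-07) and 2.06-fold higher in prefrontal NeuN+ (log2 change 1.04, SE 0.043, limma adjusted p = 2.46e-06), a gate change larger in cerebellum by 1.17 (SE 0.061, limma adjusted p = 1.39e-05). The region comparison went in opposite directions in the 2 gates. Scn2a1 was 1.71-fold higher in cerebellar NeuN+ than in prefrontal NeuN+ (log2 change 0.77, SE 0.043, limma adjusted p = 6.12e-06) and 1.31-fold lower in cerebellar NeuN- than in prefrontal NeuN- (log2 change -0.39, SE 0.043, limma adjusted p = 0.000157). The NeuN- call was lost with a common sum (adjusted p = 0.0603). Granule neuron markers, given above, had their highest sums in the same cerebellar NeuN+ libraries, and their part in the Scn2a1 level was not tested.

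Scn8a (chromosome 15, 100701076 to 100876369, mm9) encodes Nav1.6, the main channel of mature nodes of Ranvier and a source of the resurgent current of Purkinje cells. The libraries held 18.0 and 18.2 FPKM in cerebellar NeuN+, 14.9 and 15.1 in cerebellar NeuN-, 14.3 and 14.7 in prefrontal NeuN+ and 5.93 and 5.89 in prefrontal NeuN-. The prefrontal NeuN- libraries were far below the other 6, and cerebellar NeuN- was close to prefrontal NeuN+. The NeuN+ excess was 1.19-fold in cerebellum (log2 change 0.25, SE 0.046, limma adjusted p = 0.00236) and 2.59-fold in prefrontal cortex (log2 change 1.37, SE 0.046, limma adjusted p = 1.12e-06), a difference of -1.12 (SE 0.065, limma adjusted p = 2.1e-05). In NeuN-, Scn8a was 2.65-fold higher in cerebellum (log2 change 1.41, SE 0.046, limma adjusted p = 9.13e-07).

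Scn3a, encoding Nav1.3, a channel most abundant in brain before birth, was highest in prefrontal NeuN+. It had 4.69 and 4.87 FPKM in cerebellar NeuN+, 2.19 and 2.20 in cerebellar NeuN-, 11.5 and 11.8 in prefrontal NeuN+ and 3.42 and 3.50 in prefrontal NeuN-. The groups did not overlap. Its NeuN+ level was 1.82-fold higher in cerebellum (log2 change 0.86, SE 0.060, limma adjusted p = 2.22e-05) and 3.23-fold higher in prefrontal cortex (log2 change 1.69, SE 0.060, limma adjusted p = 1.34e-06), and in NeuN+ it was 2.21-fold lower in cerebellum than in prefrontal cortex (limma adjusted p = 4.76e-06). The smaller NeuN- difference between the regions (log2 -0.31, limma adjusted p = 0.00259) was not called with a common sum (adjusted p = 0.216). Scn9a, encoding the sensory neuron channel Nav1.7, was low, at 2.33 and 2.37 FPKM in cerebellar NeuN+, 0.981 and 1.05 in cerebellar NeuN-, 2.48 and 2.49 in prefrontal NeuN+ and 0.667 and 0.577 in prefrontal NeuN-. Both NeuN+ groups stood above both NeuN- groups, by 1.67-fold in cerebellum (limma adjusted p = 5.82e-05) and 2.31-fold in prefrontal cortex (limma adjusted p = 6.75e-06). Scn9a passed the filter through NeuN+ libraries, so these gate p-values are descriptive only. The NeuN+ levels of the regions differed by -0.06 on the log2 scale (SE 0.063), a difference not called (limma adjusted p = 0.387). Scn9a overlaps the feature Gm13629, and with no statement of strand use its values are uncertain.

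As shares of the alpha subunit FPKM, which do not depend on library scaling, Scn2a1 made up 52.2% and 52.6% in cerebellar NeuN+, 28.4% and 29.0% in cerebellar NeuN-, 35.4% and 34.7% in prefrontal NeuN+ and 51.1% and 50.8% in prefrontal NeuN-. Scn8a held 37.6% and 38.5% of the sum in cerebellar NeuN- and between 15.5% and 17.1% in the other 6 libraries. Scn1a held its largest share, 32.6% and 32.2%, in prefrontal NeuN+. Thus Scn8a was the first gene of the class by FPKM in cerebellar NeuN-, and Scn2a1 in each of the other 3 groups. The order of the alpha genes below the first was Scn1a, Scn8a, Scn3a and Scn9a in those 3 groups and Scn2a1, Scn1a, Scn3a and Scn9a in cerebellar NeuN-, with no overlap between neighbours.

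**Figure D2:**
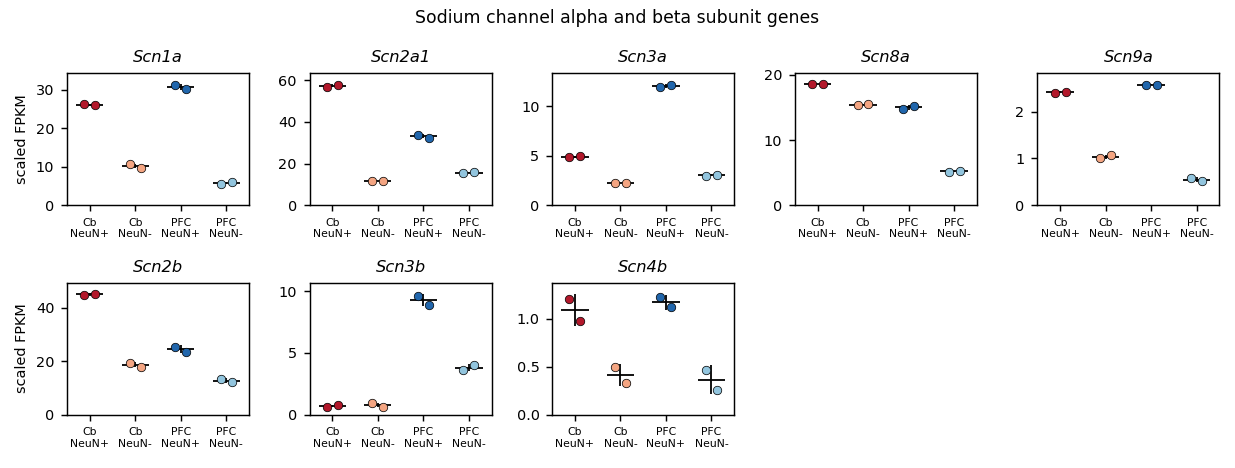
Scaled FPKM (y axis, linear, from 0) of the sodium channel alpha genes (upper row) and beta genes (lower row) in cerebellar (Cb) NeuN+, cerebellar NeuN-, prefrontal (PFC) NeuN+ and prefrontal NeuN- nuclei; each point is a library, the horizontal line the mean and the vertical line ± 1 SD of 2 libraries. Scn2a1 is highest in cerebellar NeuN+, Scn3a and Scn3b are highest in prefrontal NeuN+, and Scn8a is low only in prefrontal NeuN-.

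Scn3a, Scn2a1, Scn1a, Scn9a and Scn7a lie within 1.33 Mb of chromosome 2 (mm9, 65295175 to 66622967), and these neighbours did not share a regional pattern. The start sites of Scn1a and Scn2a1 in this block, whose gate changes differ between the regions in opposite directions, are printed beside that of Scn8a on chromosome 15 because the 3 windows differ in their number of CG dinucleotides. The sequences are from RefSeq, build GRCm38.p6, read 5′ to 3′ on the gene's strand from 250 bases before to 50 after an annotated start, with CG dinucleotides in capitals. For Scn2a1 and Scn8a, which have more than 1 window, the one holding TATAAA and the one richest in CG are given.
Scn1a (chr2:66440788-66441087, minus strand): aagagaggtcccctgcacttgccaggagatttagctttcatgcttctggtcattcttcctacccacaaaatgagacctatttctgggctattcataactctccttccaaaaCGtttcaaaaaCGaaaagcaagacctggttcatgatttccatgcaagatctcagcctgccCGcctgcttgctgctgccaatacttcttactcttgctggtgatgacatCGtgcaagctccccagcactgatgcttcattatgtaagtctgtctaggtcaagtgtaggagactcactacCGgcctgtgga
Scn2a1 (chr2:65668436-65668735, plus strand): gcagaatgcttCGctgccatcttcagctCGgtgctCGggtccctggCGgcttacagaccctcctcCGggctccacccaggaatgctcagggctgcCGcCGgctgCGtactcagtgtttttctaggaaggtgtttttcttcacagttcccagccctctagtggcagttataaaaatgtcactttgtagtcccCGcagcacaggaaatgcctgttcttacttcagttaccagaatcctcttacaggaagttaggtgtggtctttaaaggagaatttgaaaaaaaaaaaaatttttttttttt
Scn8a (chr15:100870395-100870694, plus strand): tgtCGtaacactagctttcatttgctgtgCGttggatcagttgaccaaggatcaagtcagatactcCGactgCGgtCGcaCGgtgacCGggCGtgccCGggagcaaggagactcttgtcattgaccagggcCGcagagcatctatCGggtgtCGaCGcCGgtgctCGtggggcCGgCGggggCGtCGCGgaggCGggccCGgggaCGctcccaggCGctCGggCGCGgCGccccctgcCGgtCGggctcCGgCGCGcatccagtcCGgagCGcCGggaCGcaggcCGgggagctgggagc
The Scn1a window holds 5 CG, a number reached or passed by 62.0% of all 32851 windows, the Scn2a1 window 9 (45.8%) and the Scn8a window 38 (4.95%). The Scn2a1 window not printed holds 3 (76.7%) and the Scn8a window not printed 12 (39.6%). The contrast between these genes thus depends on the window chosen. RefSeq windows were found for 30 of the 40 members (29 by symbol and 1 by synonym), 41 windows in all. Their median CG number was 9, and 7 over all windows. At least 20 CG were found in 15 of the 41 windows, 36.6%, and in 26.5% of all windows. TATAAA, on either strand, was found in 2 member windows, 4.88%, and in 13.6% of all windows. Unmatched members included Scn3a, Scn3b, Cacna1a, Cacna1g, Cacna1h, Cacna2d4, Cacng1 and Cacng4.

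Sodium channel beta subunits are single-pass membrane proteins that shift gating and attach channels to adhesion partners. The class was dominated by Scn2b, which binds the alpha subunit through a disulfide bond. Scn2b stood at 43.4 and 44.3 FPKM in cerebellar NeuN+, 18.8 and 17.5 in cerebellar NeuN-, 24.6 and 22.8 in prefrontal NeuN+ and 15.3 and 13.6 in prefrontal NeuN-. Each NeuN+ group was above its NeuN- group and each cerebellar group above its prefrontal one. The NeuN+ level was 2.34-fold higher in cerebellum (log2 change 1.23, SE 0.069, limma adjusted p = 8.34e-06) and 1.87-fold higher in prefrontal cortex (log2 change 0.90, SE 0.069, limma adjusted p = 3.65e-05). The cerebellar level was 1.80-fold higher in NeuN+ (limma adjusted p = 3.51e-05) and 1.43-fold higher in NeuN- (limma adjusted p = 0.000394). The difference of the gate changes, 0.33, was called (limma adjusted p = 0.0206) but lost the call with a common sum (0.13, adjusted p = 0.252) and without any 1 of 5 libraries: cerebellar NeuN+ 1 or 2, cerebellar NeuN- 2, prefrontal NeuN+ 2 and prefrontal NeuN- 1 (adjusted p from 0.0507 to 0.067). Scn2b overlaps the feature Gm10684, which makes its values uncertain.

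Scn3b, whose product binds the alpha subunit without a covalent bond, set the regions apart. Its FPKM were 0.583 and 0.723 in cerebellar NeuN+, 0.882 and 0.630 in cerebellar NeuN-, 9.26 and 8.62 in prefrontal NeuN+ and 4.13 and 4.53 in prefrontal NeuN-. All 4 cerebellar libraries were below 1 FPKM and all 4 prefrontal ones above 4. Scn3b thus passed the filter through prefrontal libraries, and its region p-values are descriptive only. It was 6.14-fold lower in cerebellar than in prefrontal NeuN+ (log2 change -2.62, SE 0.10, limma adjusted p = 1.34e-06) and 2.71-fold lower in NeuN- (log2 change -1.44, SE 0.10, limma adjusted p = 1.85e-05). In prefrontal cortex its NeuN+ level was 2.14-fold higher (limma adjusted p = 9.6e-05). In cerebellum the gates overlapped (log2 -0.09, limma adjusted p = 0.486), with the opposite sign under quantile scaling. Scn3b made up 1.24% and 1.49% of the beta subunit FPKM in cerebellar NeuN+, 4.26% and 3.32% in cerebellar NeuN-, 26.0% and 25.8% in prefrontal NeuN+ and 19.9% and 23.4% in prefrontal NeuN-.

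Scn4b, the subunit whose tail is linked to resurgent current, had 1.18 and 0.954 FPKM in cerebellar NeuN+, 0.478 and 0.327 in cerebellar NeuN-, 1.19 and 1.08 in prefrontal NeuN+ and 0.541 and 0.291 in prefrontal NeuN-. NeuN+ was above NeuN- in both regions, by 1.48-fold in cerebellum (limma adjusted p = 0.00275) and 1.60-fold in prefrontal cortex (limma adjusted p = 0.00122), and neither region comparison was called (limma adjusted p = 0.662 in NeuN+ and 0.663 in NeuN-). Scn4b reached 1 FPKM only in NeuN+ libraries, so its gate p-values are descriptive only.

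Calcium channel alpha1 genes fall into L-type (Cacna1s, Cacna1c, Cacna1d, Cacna1f), presynaptic P/Q-, N- and R-type (Cacna1a, Cacna1b, Cacna1e) and low-threshold T-type channels (Cacna1g, Cacna1h, Cacna1i). All 6 that entered the fit were called higher in prefrontal NeuN+, each by at least 2-fold. Over all features, 35.0% were called higher there, and 9.36% by at least 2-fold. In cerebellum, 5 of the 6 were called higher in NeuN+ (32.4% of all features) and Cacna1d was not called. In NeuN-, 5 of the 6 were called higher in cerebellum than in prefrontal cortex (40.5% of all features). Cacna1e and Cacna1i passed the filter only through NeuN+ libraries. The class summed to 17.4 ± 0.178 scaled FPKM in cerebellar NeuN-, 26.3 ± 0.538 in prefrontal NeuN+ and 5.23 ± 0.297 in prefrontal NeuN- (SD, n = 2 each).

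Cacna1a (chromosome 8, 86939263 to 87164148, mm9), the pore of P/Q-type channels, which dominate the Purkinje cell calcium current and trigger release at many central synapses, was the highest alpha1 gene in cerebellum. One library, cerebellar NeuN+ 1, is set aside because the deposited status of its Cacna1a value is FAIL and its listed 17.2 FPKM lies outside its own confidence limits of 0 and 0.899. The other FPKM were 18.3 in cerebellar NeuN+ 2, 5.78 and 5.44 in cerebellar NeuN-, 4.73 and 4.59 in prefrontal NeuN+ and 1.15 and 0.871 in prefrontal NeuN-. The single cerebellar NeuN+ value is above all others and the groups do not overlap. With that group resting on 1 library, assumed to vary like the rest, the NeuN+ level was 2.92-fold higher in cerebellum (log2 change 1.54, SE 0.11, limma adjusted p = 6.22e-05). In prefrontal cortex it was 3.09-fold higher (log2 change 1.63, SE 0.087, limma adjusted p = 2.35e-05). The cerebellar level was 3.38-fold higher than the prefrontal one in NeuN+ (limma adjusted p = 2.88e-05) and 3.59-fold higher in NeuN- (limma adjusted p = 1.03e-05). Between the gate changes the difference was -0.08 (SE 0.14, limma adjusted p = 0.613), and it was called with a pseudocount of 0.1 (-0.64, adjusted p = 0.0431). Purkinje markers, 6 genes, summed to 475 and 471 FPKM in cerebellar NeuN+, 417 and 448 in cerebellar NeuN-, and 47.3 to 57.2 in the 4 prefrontal libraries. Most of the cerebellar sums was Pcp2, with 398 and 397 FPKM in NeuN+ and 358 and 390 in NeuN-. Calb1 made up most of the prefrontal sums. The part of these markers in the Cacna1a level was not tested.

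Cacna1b (chromosome 2, 24459409 to 24618672, mm9) encodes the N-type channel of presynaptic terminals. Its FPKM were 4.60 and 5.04 in cerebellar NeuN+, 1.34 and 1.34 in cerebellar NeuN-, 6.96 and 7.19 in prefrontal NeuN+ and 1.06 and 1.15 in prefrontal NeuN-. Prefrontal NeuN+ was the highest group and both NeuN- groups lay near 1 FPKM. NeuN+ was 2.50-fold higher in cerebellum (log2 change 1.32, SE 0.071, limma adjusted p = 7.18e-06) and 4.23-fold higher in prefrontal cortex (log2 change 2.08, SE 0.071, limma adjusted p = 1.18e-06). In NeuN+ it was 1.40-fold lower in cerebellum than in prefrontal cortex (limma adjusted p = 0.000711). In NeuN- it was 1.21-fold higher in cerebellum (limma adjusted p = 0.0106), a call lost without library scaling (adjusted p = 0.0832). Cacna1e, encoding R-type channels, had 1.70 and 1.65 FPKM in cerebellar NeuN+, 0.799 and 0.917 in cerebellar NeuN-, 2.27 and 1.95 in prefrontal NeuN+ and 0.576 and 0.393 in prefrontal NeuN-. It was 1.45-fold higher in cerebellar NeuN+ (limma adjusted p = 0.00142) and 2.24-fold higher in prefrontal NeuN+ (limma adjusted p = 3.46e-05). Cacna1e reached 1 FPKM only in NeuN+ libraries, so these gate p-values are descriptive only. Its region difference in NeuN+ was -0.23 with a limma adjusted p of 0.0504, which passed without the variance trend (0.041) and without prefrontal NeuN+ 2 (-0.30, adjusted p = 0.0331), prefrontal NeuN- 1 or prefrontal NeuN- 2.

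Within the presynaptic trio, Cacna1a made up 73.2% of the summed FPKM in cerebellar NeuN+ 2 and a mean of 71.8% ± 1.60 in cerebellar NeuN-, against 33.6% ± 0.338 in prefrontal NeuN+ and 38.8% ± 3.79 in prefrontal NeuN- (SD, n = 2). Cacna1b made up 20.2% of the same sum in cerebellar NeuN+ 2, 17.2% ± 0.311 in cerebellar NeuN-, 51.1% ± 1.79 in prefrontal NeuN+ and 42.8% ± 6.90 in prefrontal NeuN-. P/Q-type message was thus the larger part in cerebellum and N-type message in prefrontal NeuN+, while in prefrontal NeuN- the shares of both genes lie within the spread of the libraries.

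Cacna1d (chromosome 14, 30853130 to 31304342, mm9), encoding an L-type channel that opens at modest depolarization and supports pacemaking, was called between the gates in prefrontal cortex and not in cerebellum. It had 4.01 and 4.09 FPKM in cerebellar NeuN+, 4.51 and 4.78 in cerebellar NeuN-, 4.18 and 3.96 in prefrontal NeuN+ and 0.740 and 0.812 in prefrontal NeuN-. Only prefrontal NeuN- was low. The prefrontal NeuN+ level was 3.10-fold higher (log2 change 1.63, SE 0.068, limma adjusted p = 2.66e-06), the cerebellar gate change was -0.16 (SE 0.068, limma adjusted p = 0.0755; adjusted p = 0.0434 without the variance trend), and the difference of -1.79 was called (SE 0.10, limma adjusted p = 1.54e-05). In NeuN- it was 3.43-fold higher in cerebellum (log2 change 1.78, SE 0.068, limma adjusted p = 1.57e-06). Cacna1d overlaps Chdh, 4831407H17Rik and Dcp1a, so its values are uncertain.

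The T-type genes Cacna1g and Cacna1i, which support burst firing, differed in their NeuN- levels. Cacna1g had 5.26 and 5.14 FPKM in cerebellar NeuN+, 3.30 and 3.01 in cerebellar NeuN-, 3.70 and 3.78 in prefrontal NeuN+ and 0.957 and 1.08 in prefrontal NeuN-. Each cerebellar group was above its prefrontal counterpart, 1.30-fold higher in NeuN+ (limma adjusted p = 0.00298) and 2.24-fold higher in NeuN- (limma adjusted p = 1.17e-05). The NeuN+ excess was 1.50-fold in cerebellum (log2 change 0.58, SE 0.075, limma adjusted p = 0.00043) and 2.57-fold in prefrontal cortex (log2 change 1.36, SE 0.075, limma adjusted p = 8.12e-06). Cacna1i had 1.91 and 2.43 FPKM in cerebellar NeuN+, 0.249 and 0.347 in cerebellar NeuN-, 2.15 and 1.95 in prefrontal NeuN+ and 0.507 and 0.267 in prefrontal NeuN-. Both NeuN+ groups were near 2 FPKM and both NeuN- groups near or below 0.5, a NeuN+ excess of 2.47-fold in cerebellum (log2 change 1.30, SE 0.11, limma adjusted p = 6.15e-05) and 2.34-fold in prefrontal cortex (log2 change 1.23, SE 0.11, limma adjusted p = 8.89e-05). The gate p-values of Cacna1i are descriptive only, since the gene reached 1 FPKM only in NeuN+ libraries. Neither region comparison of Cacna1i was called (log2 0.05, SE 0.11, in NeuN+ and -0.03, SE 0.11, in NeuN-). The third T-type gene, Cacna1h, stayed below the filter with 0 and 0 FPKM in cerebellar NeuN+, 0.550 and 0.702 in cerebellar NeuN-, 1.15 and 0.991 in prefrontal NeuN+ and 0.866 and 0.710 in prefrontal NeuN-. It is the one T-type gene listed at 0 in cerebellar NeuN+, and it overlaps Tpsg1.

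**Figure D3:**
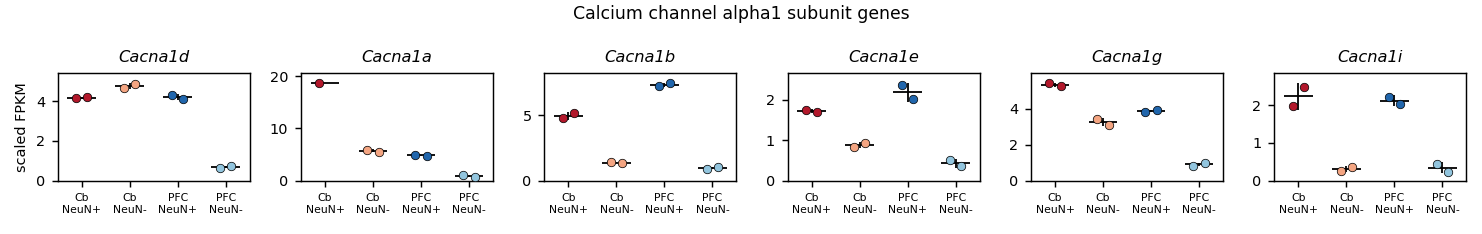
Scaled FPKM (y axis, linear, from 0) of the 6 tested calcium channel alpha1 genes in cerebellar (Cb) NeuN+, cerebellar NeuN-, prefrontal (PFC) NeuN+ and prefrontal NeuN- nuclei; each point is a library, with the mean and ± 1 SD of 2 libraries, except Cacna1a in cerebellar NeuN+, where 1 library remains. Cacna1a is highest in cerebellar NeuN+, Cacna1b in prefrontal NeuN+, and Cacna1d is low only in prefrontal NeuN-.

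Alpha2delta subunits are extracellular proteins that raise the number of calcium channels at the membrane and at release sites, and the products of Cacna2d1 and Cacna2d2 bind gabapentin. The class summed to 15.3 ± 0.391 scaled FPKM in cerebellar NeuN+, 25.0 ± 0.742 in cerebellar NeuN-, 45.3 ± 0.594 in prefrontal NeuN+ and 22.1 ± 0.193 in prefrontal NeuN- (SD, n = 2 each). The NeuN+ sum was thus the lower in cerebellum and the higher in prefrontal cortex. Cacna2d3 showed the same reversal, while Cacna2d1 was higher in NeuN+ in both regions.

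Cacna2d3 (chromosome 14, 29718129 to 30535050, mm9), whose product is linked to hearing and pain processing in mice, had 5.10 and 5.14 FPKM in cerebellar NeuN+ against 17.5 and 17.8 in cerebellar NeuN-, and 19.9 and 21.2 in prefrontal NeuN+ against 8.70 and 8.99 in prefrontal NeuN-. The groups did not overlap, and the order of the gates was opposite in the 2 regions. NeuN+ was 3.06-fold lower in cerebellum (log2 change -1.61, SE 0.055, limma adjusted p = 1.24e-06) and 2.54-fold higher in prefrontal cortex (log2 change 1.35, SE 0.055, limma adjusted p = 2.33e-06). The difference of the gate changes was -2.96 (SE 0.078, limma adjusted p = 2.05e-06), the largest in size among the 26 members. Between the regions it was 3.55-fold lower in cerebellar NeuN+ (limma adjusted p = 4.87e-07) and 2.19-fold higher in cerebellar NeuN- (limma adjusted p = 3.73e-06). These calls and directions held under all alternatives run. The gene contains the shorter feature Lrtm1, so the values are uncertain. Its annotated start is printed because the gate direction of Cacna2d3 differs between the regions, and is from RefSeq, build GRCm38.p6, with CG dinucleotides in capitals.
Cacna2d3 (chr14:29721815-29722114, minus strand): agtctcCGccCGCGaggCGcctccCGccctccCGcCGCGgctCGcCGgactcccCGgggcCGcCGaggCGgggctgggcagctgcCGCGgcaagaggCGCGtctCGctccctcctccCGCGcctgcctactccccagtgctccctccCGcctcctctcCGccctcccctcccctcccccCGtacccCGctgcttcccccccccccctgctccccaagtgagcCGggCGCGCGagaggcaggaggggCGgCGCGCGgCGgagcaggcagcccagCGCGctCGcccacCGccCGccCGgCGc
This window holds 41 CG, a number reached or passed by 3.46% of all windows.

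Cacna2d1 had 5.50 and 6.57 FPKM in cerebellar NeuN+, 3.52 and 2.86 in cerebellar NeuN-, 23.1 and 22.6 in prefrontal NeuN+ and 15.7 and 15.4 in prefrontal NeuN-. All prefrontal libraries were above all cerebellar ones. It was 3.43-fold lower in cerebellum in NeuN+ (log2 change -1.78, SE 0.10, limma adjusted p = 6.65e-06) and 3.44-fold lower in NeuN- (log2 change -1.78, SE 0.10, limma adjusted p = 6.72e-06), while the NeuN+ excess was 1.69-fold in cerebellum (limma adjusted p = 0.000517) and 1.68-fold in prefrontal cortex (limma adjusted p = 0.000552). The gate changes differed by 0.00 on the log2 scale (SE 0.14). Cacna2d2, the gene mutated in the ataxic ducky mouse, was higher in cerebellum in both gates. Its FPKM were 3.31 and 2.68 in cerebellar NeuN+, 1.49 and 1.11 in cerebellar NeuN-, 0.316 and 0.324 in prefrontal NeuN+ and 0.319 and 0.245 in prefrontal NeuN-. It was 3.05-fold higher in cerebellum in NeuN+ (log2 change 1.61, SE 0.11, limma adjusted p = 1.81e-05) and 1.87-fold higher in NeuN- (limma adjusted p = 0.000305). Cacna2d2 passed the filter through cerebellar libraries, so these region p-values are descriptive only. In cerebellum NeuN+ was 1.74-fold higher than NeuN- (limma adjusted p = 0.000674), and in prefrontal cortex the gate change was not called (limma adjusted p = 0.479).

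Cacna2d4, best known from photoreceptors, was highest in cerebellar NeuN-. It passed the filter through these libraries, so p-values that use this group are descriptive only. It had 0.594 and 0.783 FPKM in cerebellar NeuN+, 2.21 and 2.07 in cerebellar NeuN-, 0.0527 and 0.0897 in prefrontal NeuN+ and 0.590 and 0.505 in prefrontal NeuN-. In each region NeuN+ was below NeuN-, 1.88-fold lower in cerebellum (log2 change -0.91, SE 0.076, limma adjusted p = 5.44e-05) and 1.38-fold lower in prefrontal cortex (log2 change -0.46, SE 0.076, limma adjusted p = 0.0015). The difference of these changes, -0.44 (limma adjusted p = 0.00947), had the opposite sign with a pseudocount of 0.1 (0.23, adjusted p = 0.463) and was not called under quantile scaling. Cacna2d4 overlaps Lrtm2. As shares of the class FPKM, Cacna2d3 held 35.2% and 33.9% in cerebellar NeuN+, 70.8% and 74.7% in cerebellar NeuN-, 45.9% and 48.0% in prefrontal NeuN+ and 34.4% and 35.8% in prefrontal NeuN-. Cacna2d2 held 22.8% and 17.7% in cerebellar NeuN+ and at most 1.26% in any prefrontal library.

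Calcium channel beta subunits are cytoplasmic proteins that bind the alpha1 loop and carry the channel to the membrane. Cacnb4 and Cacnb3 made up most of the class in all groups. Cacnb4, the gene mutated in the ataxic lethargic mouse, had 32.8 and 31.7 FPKM in cerebellar NeuN+, 19.9 and 19.7 in cerebellar NeuN-, 28.6 and 28.8 in prefrontal NeuN+ and 17.2 and 17.8 in prefrontal NeuN-. NeuN+ was above NeuN- in both regions, 1.60-fold higher in cerebellum (log2 change 0.68, SE 0.047, limma adjusted p = 2.24e-05) and 1.87-fold higher in prefrontal cortex (log2 change 0.90, SE 0.047, limma adjusted p = 6.69e-06). In NeuN- the cerebellar level was 1.30-fold higher (limma adjusted p = 0.000302). The NeuN+ region difference of 0.15 (limma adjusted p = 0.0218) was lost without cerebellar NeuN+ 1, prefrontal NeuN+ 1 or prefrontal NeuN+ 2 (adjusted p from 0.0613 to 0.105). The difference of the gate changes, -0.22 (limma adjusted p = 0.0216), was lost without library scaling (adjusted p = 0.986) and without cerebellar NeuN+ 2, cerebellar NeuN- 1 or prefrontal NeuN+ 2.

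Cacnb3 had 14.2 and 12.2 FPKM in cerebellar NeuN+, 8.90 and 10.9 in cerebellar NeuN-, 30.5 and 29.6 in prefrontal NeuN+ and 14.8 and 13.7 in prefrontal NeuN-. Prefrontal NeuN+ stood apart above the other 6 libraries, 2.38-fold higher than prefrontal NeuN- (log2 change 1.25, SE 0.11, limma adjusted p = 5.81e-05). Cerebellar NeuN+ was 2.20-fold lower than prefrontal NeuN+ (log2 change -1.14, SE 0.11, limma adjusted p = 6.76e-05). Within cerebellum NeuN+ was 1.31-fold higher (limma adjusted p = 0.014), a call lost without cerebellar NeuN+ 1 (adjusted p = 0.0819) or cerebellar NeuN- 1 (adjusted p = 0.0747). The NeuN- region difference of -0.28 (limma adjusted p = 0.0439) did not hold: it was lost under 10 alternatives, 5 of them with 1 library left out, and was at 0.00064 with a common sum.

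Cacnb1, best known as the subunit of the skeletal muscle channel, was highest in cerebellar NeuN-. Its FPKM were 0.447 and 0.779 in cerebellar NeuN+ against 7.85 and 6.39 in cerebellar NeuN-, and 1.63 and 1.71 in prefrontal NeuN+ against 2.27 and 2.22 in prefrontal NeuN-. The cerebellar NeuN- libraries were above the other 6 and the cerebellar NeuN+ libraries below the 4 prefrontal ones. NeuN+ was 5.10-fold lower in cerebellum (log2 change -2.35, SE 0.13, limma adjusted p = 7.6e-06), whereas the prefrontal change of -0.12 was not called (SE 0.13, limma adjusted p = 0.418). The difference was -2.23 (SE 0.18, limma adjusted p = 7.16e-05). Across regions Cacnb1 was 1.68-fold lower in cerebellar NeuN+ (limma adjusted p = 0.0015) and 2.78-fold higher in cerebellar NeuN- (limma adjusted p = 4.81e-05).

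Cacnb2, the main beta subunit of heart muscle, moved in opposite directions with the gate. It had 1.89 and 2.28 FPKM in cerebellar NeuN+, 3.53 and 2.98 in cerebellar NeuN-, 5.57 and 6.21 in prefrontal NeuN+ and 3.52 and 3.02 in prefrontal NeuN-. The NeuN- groups of the regions overlapped and the NeuN+ groups stood on either side of them. NeuN+ was 1.38-fold lower in cerebellum (log2 change -0.47, SE 0.11, limma adjusted p = 0.00741), which was not called under quantile scaling (adjusted p = 0.171), and 1.83-fold higher in prefrontal cortex (log2 change 0.88, SE 0.11, limma adjusted p = 0.000384). The difference of the gate changes was -1.34 (limma adjusted p = 0.000313). In NeuN+ it was 2.26-fold lower in cerebellum (log2 change -1.18, SE 0.11, limma adjusted p = 6.92e-05), and in NeuN- no region difference was called (limma adjusted p = 0.201). Cacnb2 contains the feature Gm13315. Of the class FPKM, Cacnb4 held 66.4% and 67.5% in cerebellar NeuN+, where Cacnb1 held 0.907% and 1.66%. Cacnb1 held 19.5% and 16.0% in cerebellar NeuN-. In prefrontal NeuN+ the first gene was Cacnb3, with 46.0% and 44.7%, ahead of Cacnb4 with 43.1% and 43.4%.

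Of the gamma genes, Cacng2, Cacng3 and Cacng5 entered the fit, and all 3 encode AMPA receptor auxiliary proteins. The class changed its leading member with region and gate. Cacng3 led in both prefrontal groups, Cacng2 in cerebellar NeuN+ and Cacng5 in cerebellar NeuN-.

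Cacng3 (chromosome 7, 129815258 to 129912907, mm9), a homologue of stargazin, had 0.269 and 0.0399 FPKM in cerebellar NeuN+, 1.12 and 1.60 in cerebellar NeuN-, 17.4 and 16.8 in prefrontal NeuN+ and 13.9 and 12.3 in prefrontal NeuN-. All cerebellar libraries were below 2 FPKM and all prefrontal ones above 12. It was 16.2-fold lower in cerebellar NeuN+ than in prefrontal NeuN+ (log2 change -4.02, SE 0.14, limma adjusted p = 7.64e-07), the largest change of any member in any comparison, and 5.24-fold lower in cerebellar NeuN- (log2 change -2.39, SE 0.14, limma adjusted p = 6.95e-06). In cerebellum NeuN+ was 2.06-fold lower (log2 change -1.05, SE 0.14, limma adjusted p = 0.000456). In prefrontal cortex NeuN+ was 1.50-fold higher (limma adjusted p = 0.00726), a call lost with a pseudocount of 0.1 (adjusted p = 0.237) and without prefrontal NeuN- 2 (adjusted p = 0.0541). The cortical projection neuron markers, 5 genes, summed to 4.77 and 4.88 FPKM in cerebellar NeuN+, 2.00 and 2.13 in cerebellar NeuN-, 40.5 and 42.4 in prefrontal NeuN+ and 17.6 and 16.1 in prefrontal NeuN-, and their part was not tested.

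Cacng2 encodes stargazin, which carries AMPA receptors to the surface of granule neurons and is mutated in the ataxic stargazer mouse. Its FPKM were 8.10 and 6.67 in cerebellar NeuN+, 8.13 and 8.18 in cerebellar NeuN-, 2.75 and 3.29 in prefrontal NeuN+ and 2.44 and 1.47 in prefrontal NeuN-. All cerebellar libraries were above all prefrontal ones, 2.08-fold higher in NeuN+ (log2 change 1.06, SE 0.16, limma adjusted p = 0.000898) and 3.49-fold higher in NeuN- (log2 change 1.80, SE 0.16, limma adjusted p = 5.77e-05). The cerebellar gates did not differ beyond the spread (log2 -0.13, SE 0.16, limma adjusted p = 0.501). The prefrontal NeuN+ excess of 1.53-fold (limma adjusted p = 0.0125) was lost without prefrontal NeuN+ 2 (adjusted p = 0.0792) or prefrontal NeuN- 2 (adjusted p = 0.0603). The difference of the gate changes, -0.75 (limma adjusted p = 0.0243), was lost without library scaling and without any 1 of 5 libraries: cerebellar NeuN+ 2, cerebellar NeuN- 1 or 2, prefrontal NeuN+ 2 and prefrontal NeuN- 2 (adjusted p from 0.0552 to 0.0858).

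Cacng5, a more distant relative that has been described in Bergmann glia, was higher in NeuN- in both regions. It had 3.37 and 4.13 FPKM in cerebellar NeuN+, 11.6 and 11.7 in cerebellar NeuN-, 0.785 and 0.888 in prefrontal NeuN+ and 1.68 and 1.84 in prefrontal NeuN-. The 4 groups did not overlap. NeuN+ was 2.68-fold lower in cerebellum (log2 change -1.42, SE 0.094, limma adjusted p = 1.81e-05) and 1.36-fold lower in prefrontal cortex (log2 change -0.45, SE 0.094, limma adjusted p = 0.00472). Cerebellum was 2.59-fold higher in NeuN+ (log2 change 1.38, SE 0.094, limma adjusted p = 1.62e-05) and 5.09-fold higher in NeuN- (log2 change 2.35, SE 0.094, limma adjusted p = 1.82e-06). Astrocyte markers, 6 genes, summed to 117 and 112 FPKM in cerebellar NeuN+, 579.8 and 594 in cerebellar NeuN-, 62.8 and 62.9 in prefrontal NeuN+ and 874 and 899 in prefrontal NeuN-, and their part was not tested. Of the gamma FPKM, Cacng5 held 51.8% and 50.5% in cerebellar NeuN-, Cacng2 64.8% and 57.8% in cerebellar NeuN+, and Cacng3 81.2% and 80.1% in prefrontal NeuN+ and 71.5% and 72.4% in prefrontal NeuN-.

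**Figure D4:**
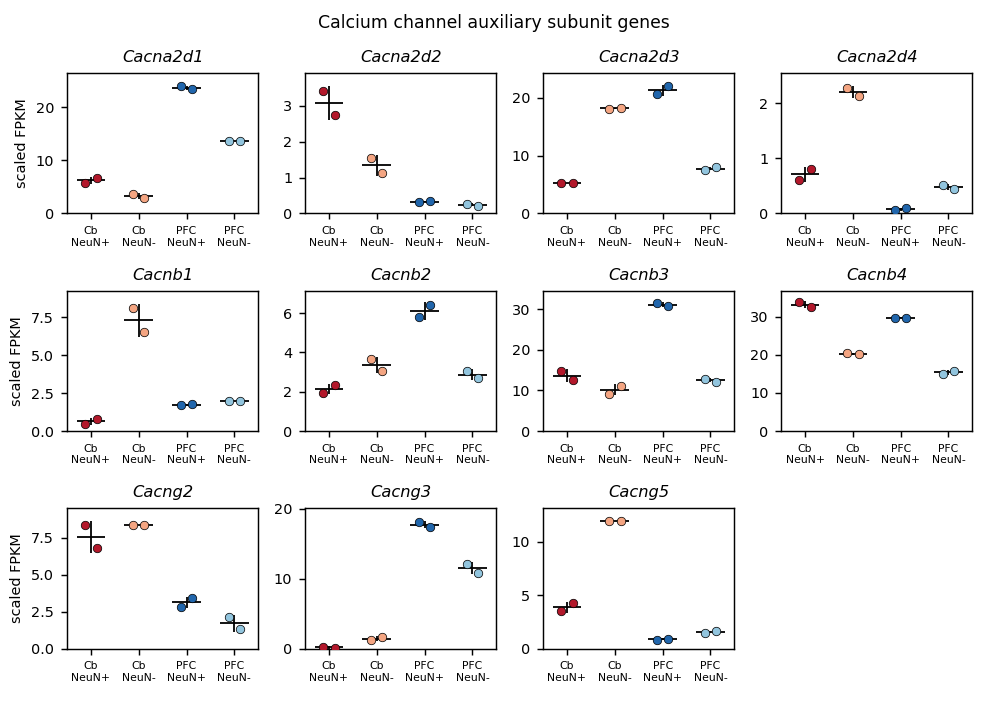
Scaled FPKM (y axis, linear, from 0) of the alpha2delta, beta and gamma genes in cerebellar (Cb) NeuN+, cerebellar NeuN-, prefrontal (PFC) NeuN+ and prefrontal NeuN- nuclei; points are libraries, with the mean and ± 1 SD of 2 libraries. Cacna2d3 has its gates in opposite order in the 2 regions, Cacnb1 is high in cerebellar NeuN- alone, and Cacng3 is near 0 in cerebellum.

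**Figure D5:**
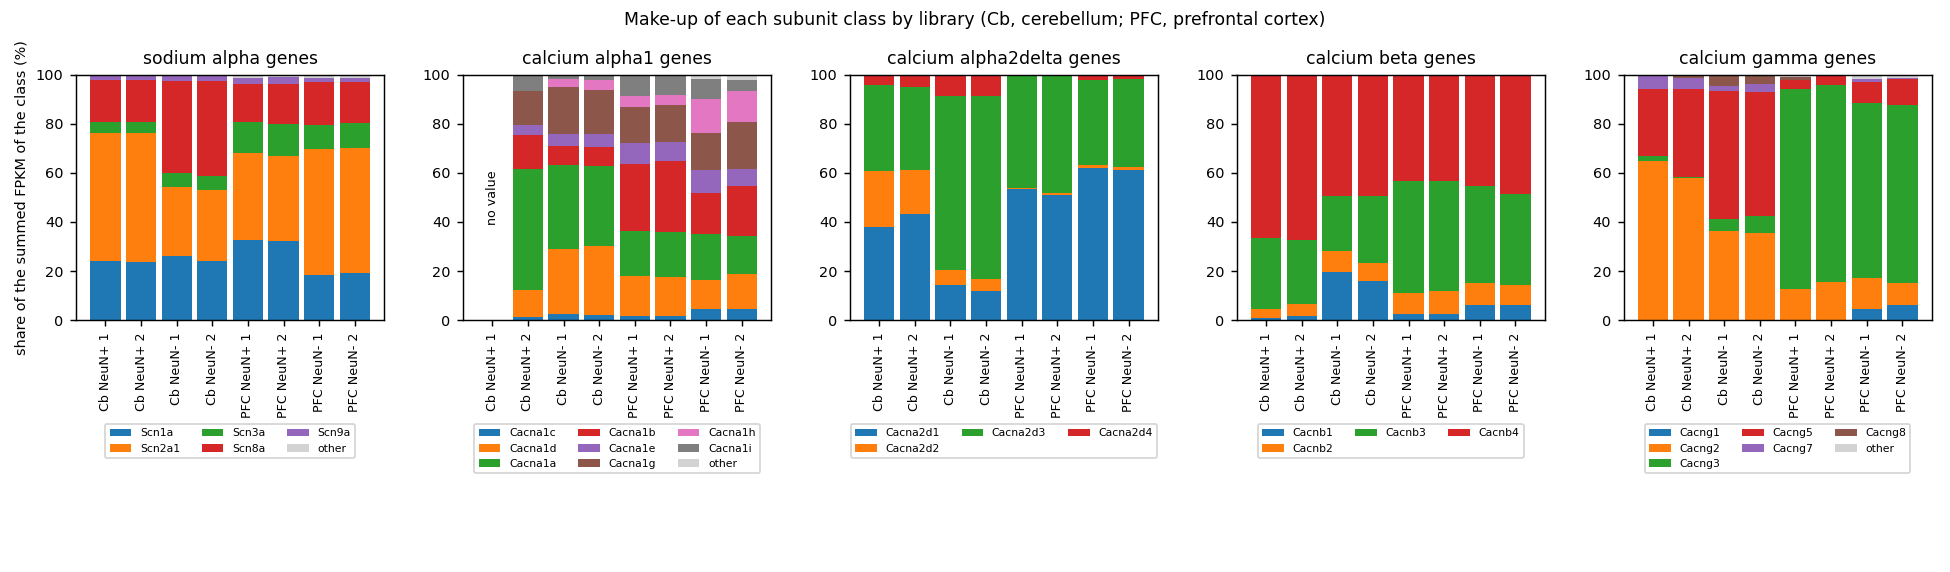
Share of each gene in the summed FPKM of its subunit class (y axis, percent) in each of the 8 libraries, for sodium alpha, calcium alpha1, alpha2delta, calcium beta and gamma genes; the alpha1 bar of cerebellar (Cb) NeuN+ 1 has no value because its Cacna1a value failed. Scn8a in cerebellar NeuN-, Cacna1a in cerebellum, Cacna2d3 in cerebellar NeuN- and Cacng3 in prefrontal cortex (PFC) take visibly larger shares than elsewhere.

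The 14 members that did not enter the fit were low in all libraries. Scn4a, Scn10a and Scn11a, which encode channels of skeletal muscle and of sensory neurons, were listed at 0 in all 8 libraries. Another 7, including Cacna1s, Cacna1c, Cacna1f, Cacng4, Cacng6 and Cacng7, stayed under 1 FPKM. Among them Cacna1c, the main L-type gene of heart and brain, had 0.507 and 0.536 FPKM in cerebellar NeuN+, 0.457 and 0.354 in cerebellar NeuN-, 0.436 and 0.457 in prefrontal NeuN+ and 0.292 and 0.261 in prefrontal NeuN-. Of the L-type sum, Cacna1d held 64.5% and 68.2% in prefrontal NeuN- and 87.3% to 92.9% in the other 6 libraries. These shares are uncertain, since Cacna1c overlaps 4931430N09Rik and Dcp1b, and Cacna1d overlaps the features named above. The other 4 of the 14 members, Scn7a, Cacna1h, Cacng1 and Cacng8, passed 1 FPKM in 1 library each. Scn7a, which encodes the sodium-sensing channel Nax, had 1.03 and 0.836 FPKM in prefrontal NeuN+ and 0.423 and 0.427 in prefrontal NeuN-, and was listed at 0 in the 4 cerebellar libraries. Cacng1, a muscle subunit gene, had 0.874 and 1.07 in prefrontal NeuN- and was listed at 0 in the other 6 libraries. Cacng8, an AMPA receptor auxiliary gene known from hippocampus, had 0 and 0.184 FPKM in cerebellar NeuN+, 1.01 and 0.920 in cerebellar NeuN-, 0.257 and 0 in prefrontal NeuN+ and 0 and 0 in prefrontal NeuN-. Values listed at 0 can be failed estimates, and no fold is given for them.

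Across classes, 15 of the 26 tested members were called higher in NeuN+ in both regions, a pattern shown by 15.2% of all features. They were the 5 sodium alpha genes, Scn2b, Scn4b, Cacna1a, Cacna1b, Cacna1e, Cacna1g, Cacna1i, Cacna2d1, Cacnb3 and Cacnb4. Scn9a, Scn4b, Cacna1e and Cacna1i are among them, which passed the filter through NeuN+ libraries. Cacna2d4 and Cacng5 were called lower in NeuN+ in both regions (20.3% of all features). Opposite calls in the 2 regions were made for Cacna2d3, Cacnb2 and Cacng3, each higher in prefrontal and lower in cerebellar NeuN+ (18.1% of all features had opposite calls). Called higher in cerebellum in both gates were 9 members, namely Scn8a, Scn2b, Cacna1a, Cacna1g, Cacna2d2, Cacna2d4, Cacnb4, Cacng2 and Cacng5 (23.6% of all features). Called lower in cerebellum in both gates were Scn3a, Scn3b, Cacna2d1, Cacnb3 and Cacng3 (25.2%). Opposite region calls in the gates were made for 5 members, Scn1a, Scn2a1, Cacna1b, Cacna2d3 and Cacnb1 (14.2%). Some of these patterns rest on a call that was lost under an alternative, as given above. Such were the cerebellar gate calls of Cacnb2 and Cacnb3 and the prefrontal gate call of Cacng3. Between the regions, such were the NeuN+ calls of Scn1a and Cacnb4 and the NeuN- calls of Scn2a1, Scn3a, Cacna1b and Cacnb3.

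Genes that act with these channels were read from 5 lists, whose counts stand beside 32.4% higher and 39.2% lower over all features in cerebellar NeuN+, and 35.0% higher and 37.6% lower in prefrontal NeuN+. A count near these shares is no result about a list. Of 11 tested genes of the initial segment and node scaffold, 6 were called higher and 3 lower in cerebellar NeuN+, and 6 higher and 2 lower in prefrontal NeuN+. Trim46, which organizes microtubules of the initial segment, was 2.17-fold higher in cerebellar and 3.64-fold higher in prefrontal NeuN+. Nfasc, encoding the adhesion protein neurofascin of neurons and glia, was 2.63-fold lower in cerebellar and 2.12-fold lower in prefrontal NeuN+, and Ank2, an ankyrin gene, was 1.56-fold lower in cerebellar and 1.25-fold lower in prefrontal NeuN+. Of the 4 fibroblast growth factor homologous factors, which bind sodium channel tails, 3 were called higher and 1 lower in cerebellar NeuN+, and 3 higher and 0 lower in prefrontal NeuN+. Fgf14 was 2.32-fold higher in cerebellar and 1.54-fold higher in prefrontal NeuN+, and Fgf12 was 2.05-fold higher in cerebellar and 1.52-fold higher in prefrontal NeuN+. Fgf11 was 2.97-fold lower in cerebellar NeuN+.

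The sodium leak channel complex, which sets resting excitability, had 3 of 4 tested genes called higher in cerebellar NeuN+ and 4 of 4 in prefrontal NeuN+. Its pore gene Nalcn was 3.09-fold higher in cerebellar NeuN+, and the scaffold genes Unc80 and Unc79 were 4.85-fold higher and 2.50-fold higher in prefrontal NeuN+, with Unc80 2.22-fold higher in cerebellar NeuN+. Calcium channel partners, 9 tested, had 5 called higher and 3 lower in cerebellar NeuN+, and 3 higher and 5 lower in prefrontal NeuN+, beside the same shares of all features. The active zone genes Rims1 and Rims2 were 4.03-fold higher and 3.17-fold higher in cerebellar NeuN+, and Rims2 2.21-fold higher in prefrontal NeuN+. The small GTPase gene Rrad, whose product inhibits calcium channels, was 11.3-fold lower in cerebellar and 2.01-fold lower in prefrontal NeuN+. Rrad reached 1 FPKM only in NeuN- libraries and so had to be high there, which leaves its gate p-values descriptive only. The adaptor gene Stac2 was 4.07-fold lower in cerebellar NeuN+ and 2.38-fold higher in prefrontal NeuN+, and the calmodulin gene Calm2 was 1.46-fold lower in prefrontal NeuN+. Of 6 tested AMPA receptor auxiliary genes outside the gamma class, 2 were called higher and 2 lower in cerebellar NeuN+, and 5 higher and 0 lower in prefrontal NeuN+. Cpt1c was 1.31-fold higher in cerebellar and 2.10-fold higher in prefrontal NeuN+, Gsg1l was 1.70-fold higher in cerebellar and 1.77-fold higher in prefrontal NeuN+, and Shisa9 and Cnih3 were 2.36-fold lower and 1.45-fold lower in cerebellar NeuN+. All named genes of these lists were called by limma, with adjusted p of at most 0.00166.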

How the data were processed

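RNA was measured in 8 libraries of NeuN-sorted nuclei of 1 mouse. The other 168 of the 176 samples of the series were not analysed here. The values are FPKM per feature, made by the authors and listed with confidence limits and a status per the file headers. Per the submitters' processing notes, the tools of the series include Trim Galore 0.3.7, Bowtie 1.1.1, TopHat2 2.1.1, Bismark and Cufflinks, and the mouse build is mm9; for Cufflinks, the version, annotation and strand use were not given in the sources used here. An FPKM table holds no counts. In each library 50.0% to 53.4% of implied fragments under 20 lay within 0.05 of an integer. Fragments could therefore not be recovered, no count test was run and the depth is unknown.

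From the deposited FPKM, 14 values with a status other than OK, 1 of them a member's, were set aside. Libraries were scaled by the median of ratios over 9102 features, with factors of 0.869 to 1.04. Of 24854 features, 14376 reached 1 FPKM in 2 libraries and 14375 were tested. Means of log2(scaled FPKM + 1), a log2 scale computed here from the deposited values, were compared with limma 3.58.1 (variance trend, 4 residual degrees of freedom, R 4.3.3) in 1 fit of all 4 groups, with Benjamini-Hochberg adjustment and a threshold of 0.05. The fit was tested on simulated data. Tables were joined in Python 3.11.15 and plots drawn in matplotlib 3.10.9. With 2 against 2 libraries no exact two-sided permutation test can reach 0.05, so shares carry no test. Deviations of same-numbered libraries from their group means correlated at -0.045 to 0.034 across features. They thus showed no shared deviation by number, which cannot exclude a pairing that the labels do not state.

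Members entered every count, and values per library are given where a group mean reached 1 scaled FPKM. Of each list of related genes, up to 2 called genes with the largest change in each direction and gate comparison were named. Some genes that these rules would name are not reported here. The members and the lists were chosen with earlier results of these data known. Alternatives were other scalings, pseudocounts, filters, no variance trend, a replicate block, the status values as listed (chosen after seeing the data) and each library left out.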

Additional observations from a re-analysis of the deposited data

Results flagged for a closer look

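The NeuN+ against NeuN- change differed between the regions, by a direct limma test of the difference (cerebellum minus prefrontal cortex, log2 scale, adjusted p under the 0.05 threshold), for 22 of the 26 tested channel genes, where 33.1% of all features had a positive and 37.0% a negative difference called. The 8 libraries come from 1 mouse.

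Among sodium channel alpha genes the difference was 1.17 for Scn2a1 and negative for the other 4, with -1.12 for Scn8a, -0.94 for Scn1a, -0.83 for Scn3a and -0.47 for Scn9a. Among beta genes it was 0.33 for Scn2b and -1.18 for Scn3b. The Scn2b call was lost with a common sum (0.13) and with some single libraries left out. Calcium channel alpha1 genes had differences of -1.79 for Cacna1d, -0.78 for Cacna1g, -0.76 for Cacna1b and -0.63 for Cacna1e.

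For the alpha2delta genes the differences were -2.96 for Cacna2d3, -0.44 for Cacna2d4 and 0.71 for Cacna2d2. For the calcium channel beta genes they were -2.23 for Cacnb1, -1.34 for Cacnb2, -0.86 for Cacnb3 and -0.22 for Cacnb4, and for the gamma genes -1.63 for Cacng3, -0.97 for Cacng5 and -0.75 for Cacng2. The calls of Cacnb4 and Cacng2 were lost without library scaling and with some single libraries left out. The Cacna2d4 difference was 0.23 with a pseudocount of 0.1, the opposite sign, and was not called under quantile scaling.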

How the results depend on the processing

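Of 130 member results, 111 were called, and 97 of these kept direction and call under every one of the 17 alternatives that gave a value, while 14 lost the call under at least 1 and 4 uncalled results gained one without a change of sign. Requiring 5 FPKM in 2 libraries gave 1 member lower in prefrontal NeuN+, 11 higher in cerebellar NeuN+ and 2 with a positive difference of the gate changes; fewer members enter under it. Without a filter, 4 members were lower in prefrontal NeuN+, and under a common FPKM sum 3 were lower in cerebellar than in prefrontal NeuN-, whose cause was not tested. Signs reversed for the difference of the gate changes of Cacna2d4 (0.23 with a pseudocount of 0.1), the NeuN- region difference of Cacnb3 (0.00064 with a common sum) and the cerebellar gate change of Scn3b (0.43 with quantile scaling, adjusted p = 0.00669). The NeuN- region difference of Cacnb2 was called with a common sum (0.39, adjusted p = 0.0143). Using the failed Cacna1a value as listed changed no call.

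With 1 library left out in turn, the counts of members called ranged from 19 to 21 higher and 2 to 2 lower in prefrontal NeuN+, 16 to 17 higher and 6 to 6 lower in cerebellar NeuN+, 10 to 11 higher and 9 to 11 lower in cerebellar against prefrontal NeuN+, 16 to 16 higher and 5 to 6 lower in cerebellar against prefrontal NeuN-, and 3 to 4 positive and 16 to 18 negative differences of the gate changes. A replicate block, although the labels state no pairing by number, left 129 of 130 results on their side of the threshold, the exception being Cacnb3 between the NeuN- regions (-0.28, adjusted p = 0.0646). The fit shares 4 residual degrees of freedom, and genes near 1 FPKM varied more between libraries than the rest.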
